A study of Mus musculus with 16 samples.

Results

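Chemokines and their receptors were followed in primary murine tracheal epithelial cells (MTECs) that had been exposed to house dust mite (HDM) extract, a common aeroallergen. The genes were every protein-coding gene whose symbol carries the stem Ccl, Cxcl, Cx3cl, Ccr, Cxcr, Cx3cr or Ackr followed by a number, of which 63 are reported among the 49315 genes counted. Of these, 43 were ligands, 16 were signalling receptors and 4 were atypical receptors. MTECs are epithelial cells taken from tracheas and grown on permeable inserts with air above and medium below, where they form basal, ciliated and secretory cells. Tracheas were pooled for the cultures, and the inserts carried a basement membrane laid down by 3T3 fibroblasts. Cultures came from male and female mice that were WT or KO for LMAN1, a lectin of the secretory pathway, and were left naïve or given HDM extract at 20 µg/ml overnight. The 8 groups of sex, genotype and treatment held 2 biological replicates each. The age of the mice is not given in the sources used here.

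The 16 libraries held between 21860698 and 43442188 counts on genes. Lman1 transcript stood at 101 to 144 CPM (counts scaled to the size of the library, with TMM factors) in the WT libraries. In the naïve libraries labelled KO it stood at 12.8 and 12.8 CPM in females and at 14.2 and 63.4 CPM in males. In the HDM libraries labelled KO it stood at 66.6 and 78.1 CPM in females and at 65.0 and 66.0 CPM in males, so 5 of the 8 libraries labelled KO kept 63.4 to 78.1 CPM, and KO is used here as the label only. Which exons the KO allele lacks is not given in the sources used here. The epithelial markers Epcam and Krt5 averaged 182 and 1690 CPM per kilobase of exon. In CPM not scaled to length, the club cell secretory protein gene Scgb1a1 lay between 0.0474 and 3.75. On the same epithelial list, Scgb3a2 held 3.25 to 357 CPM, Bpifa1 1.23 to 259, Muc5b 1.58 to 99.8 and Sftpd 100 to 735. Of 20 leukocyte markers, 10 stayed under 10 counts in every library, among them those of T cells (Cd3e), B cells (Ms4a1), NK cells (Ncr1) and neutrophils (Ly6g). The macrophage markers Csf1r, Adgre1 and Cd68 averaged 3.29, 6.26 and 14.4 CPM per kilobase, against 0.215 for the pan-leukocyte gene Ptprc. Summed over 10 fibroblast markers, libraries differed from 3.34 CPM in male WT HDM replicate 1 to 627 CPM in female WT HDM replicate 2. In such bulk cultures, fewer cells of a type and less RNA per cell cannot be told apart.

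Chemokines are small secreted or membrane-tethered proteins that direct the migration of leukocytes and other cells along gradients. They act through G protein-coupled receptors that signal through Gi proteins, and atypical receptors bind the same ligands but scavenge them without that signal. Airway epithelium makes several of them constitutively and raises others after allergens, microbes or cytokines through NF-κB and interferon-linked factors. Neutrophil-attracting ligands such as Cxcl1, Cxcl2 and Cxcl5 act on Cxcr2, the interferon-linked ligands Cxcl9 and Cxcl10 act on Cxcr3, and the monocyte-attracting ligands Ccl2 and Ccl7 act on Ccr2.

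Of the 63 genes, 31 had 10 or more counts in at least 2 libraries and are described, namely 24 ligands, 5 receptors and both of the atypical receptors Ackr3 and Ackr4. The other 32 genes, which carry 27 symbols because some symbols belong to more than 1 annotated copy, were silent by this measure. No silent gene exceeded 17 counts in a library, and 14 of them had 0 counts in every library, which allows at most 3 counts or 0.0691 to 0.137 CPM depending on the depth, for counting error only. The silent ligands were Ccl1, Ccl8, Ccl12, Ccl17, Ccl19, Ccl21a, Ccl21b, Ccl21c, Ccl24, Ccl26, Ccl27, Ccl27b, Cxcl9 and Cxcl13. The silent receptors were Ccr1, Ccr3, Ccr4, Ccr6, Ccr7, Ccr8, Ccr9, Cxcr1, Cxcr2, Cxcr3 and Cxcr6, together with the atypical Ackr1 and Ackr2. They include the receptors of several described ligands, namely Cxcr2 (at most 3 counts in a library) for Cxcl1, Cxcl2, Cxcl3 and Cxcl5, Cxcr3 (at most 4 counts) for Cxcl10 and Cxcr6 (at most 7 counts) for Cxcl16. Cxcl11 matched the symbols but is annotated as a polymorphic pseudogene and was left out. After the filter on low counts 30 of the 31 described were tested, and Cx3cr1, the receptor of Cx3cl1, was left out at 0.0663 to 0.327 CPM.

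Levels between genes were compared as CPM per kilobase of exon, since longer transcripts give more counts. Cxcl17, a mucosal chemokine that attracts myeloid cells, was the highest at a mean of 234 ± 109 CPM per kilobase (SD, n = 16 libraries). Next came Cxcl5 (52.8 ± 16.8), Cxcl15, a neutrophil attractant of mouse lung epithelium (43.9 ± 20.6), and Cxcl16, a membrane-tethered ligand that attracts T cells (43.5 ± 15.1). These 3 neighbours differed by less than their spread over libraries. The membrane-tethered Cx3cl1 averaged 19.2 ± 6.01 and Ccl5, an attractant of T cells, averaged 12.4 ± 5.41 CPM per kilobase. The highest receptor was Ccr2, at 8.25 ± 4.89, followed by the Cxcl12 scavenger Ackr3 at 7.01 ± 3.51. Cxcl10 (4.46 ± 5.35) and the macrophage product Ccl3 (3.64 ± 2.04) completed the 10 highest, and 19 of the 63 genes averaged 1 CPM per kilobase or more. Beyond the 4 leading ligands, the spread of one gene reached well into that of the next, so the order of neighbours is a description only. The plot of levels per kilobase shows this order.

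**Figure D1:**
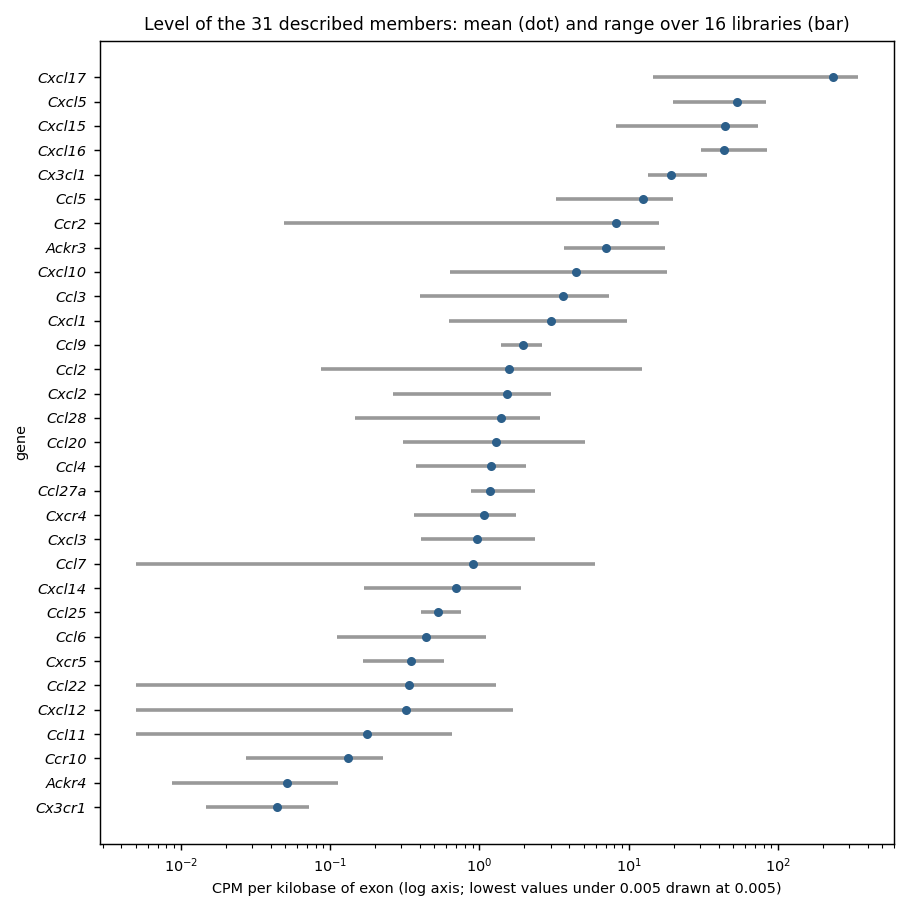
CPM per kilobase of exon (log axis) of the 31 described genes over 16 libraries, with the mean as a dot and the lowest to highest library as a bar. Cxcl17 led at a mean of 234, and Ccr2 had one of the widest ranges, from 0.0492 to 15.9.

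Across the libraries the described genes fell into those with a steady level and those that moved with a group or with single cultures. The narrowest ranges were those of Ccl25, a ligand of Ccr9 (3.02 to 5.64 CPM), and Ccl9, a ligand of Ccr1 (4.25 to 7.98 CPM). Ccl25 overlaps Elavl1 by 204 bases on the opposite strand, at 75.1 to 99.1 CPM. As the strand setting of the counting is not given, a part of Elavl1 reads in the level of Ccl25 cannot be told. Ccr2 ranged from 0.333 to 108 CPM. In the heat map of all described genes the female WT HDM libraries stand apart by low Ccr2, Cxcl17 and Ccl28 and by high Cxcl1 and Cxcl10, and the female KO HDM libraries share part of the low values.

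**Figure D2:**
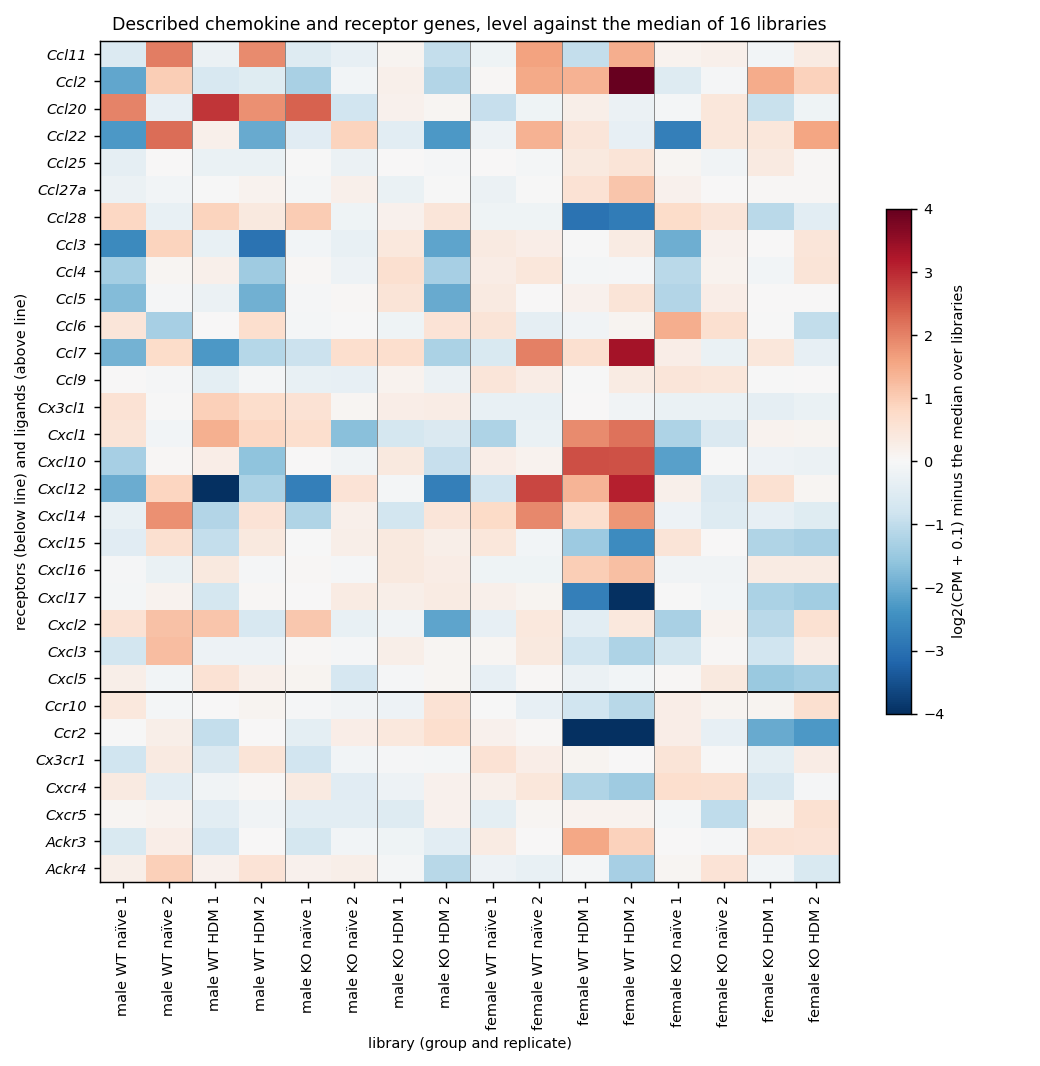
Level of each described gene (rows; ligands above the line, receptors below it) in each of 16 libraries (columns), as log2(CPM + 0.1) minus the gene's median over libraries, with colours capped at 4 in either direction. Both female WT HDM libraries show deep blue for Ccr2 (0.333 and 1.47 CPM) and red for Cxcl10 (40.9 and 39.8 CPM).

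The first question was which chemokine genes respond to HDM in each kind of culture. In female WT MTECs 11 of 30 tested members passed the quasi-likelihood test of edgeR at an adjusted p under 0.05, 6 higher and 5 lower after HDM. The background was high, since 20.6% of all 15993 tested genes were called higher and 22.4% lower in that comparison, so the share of members called lies near it in both directions. The median log2 fold change was -0.1 over the members and -0.024 over all genes tested, and the median absolute log2 fold change was 0.73 and 0.38. In female KO MTECs 4 members were called, 1 higher and 3 lower, beside 4.63% and 5.77% of all genes, and the medians were 0.11 over the members and -0.0048 over all genes. As Lman1 also differed between these naïve and HDM libraries (12.8 and 12.8 against 66.6 and 78.1 CPM), HDM and unlike cultures cannot be told apart there. Without naïve replicate 1, naïve replicate 2, HDM replicate 1 or HDM replicate 2 of female KO, 2, 2, 2 and 1 members were called. In male WT and male KO MTECs edgeR called 0 members and 0% of all genes in either comparison. At an unadjusted p under 0.05 there were 2 members in male WT and 1 in male KO, beside 665 and 857 of all genes. DESeq2 called 0 members in both, beside 2 and 1 of all genes. The plot of log2 fold changes gives every tested member in the 4 responses.

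**Figure D3:**
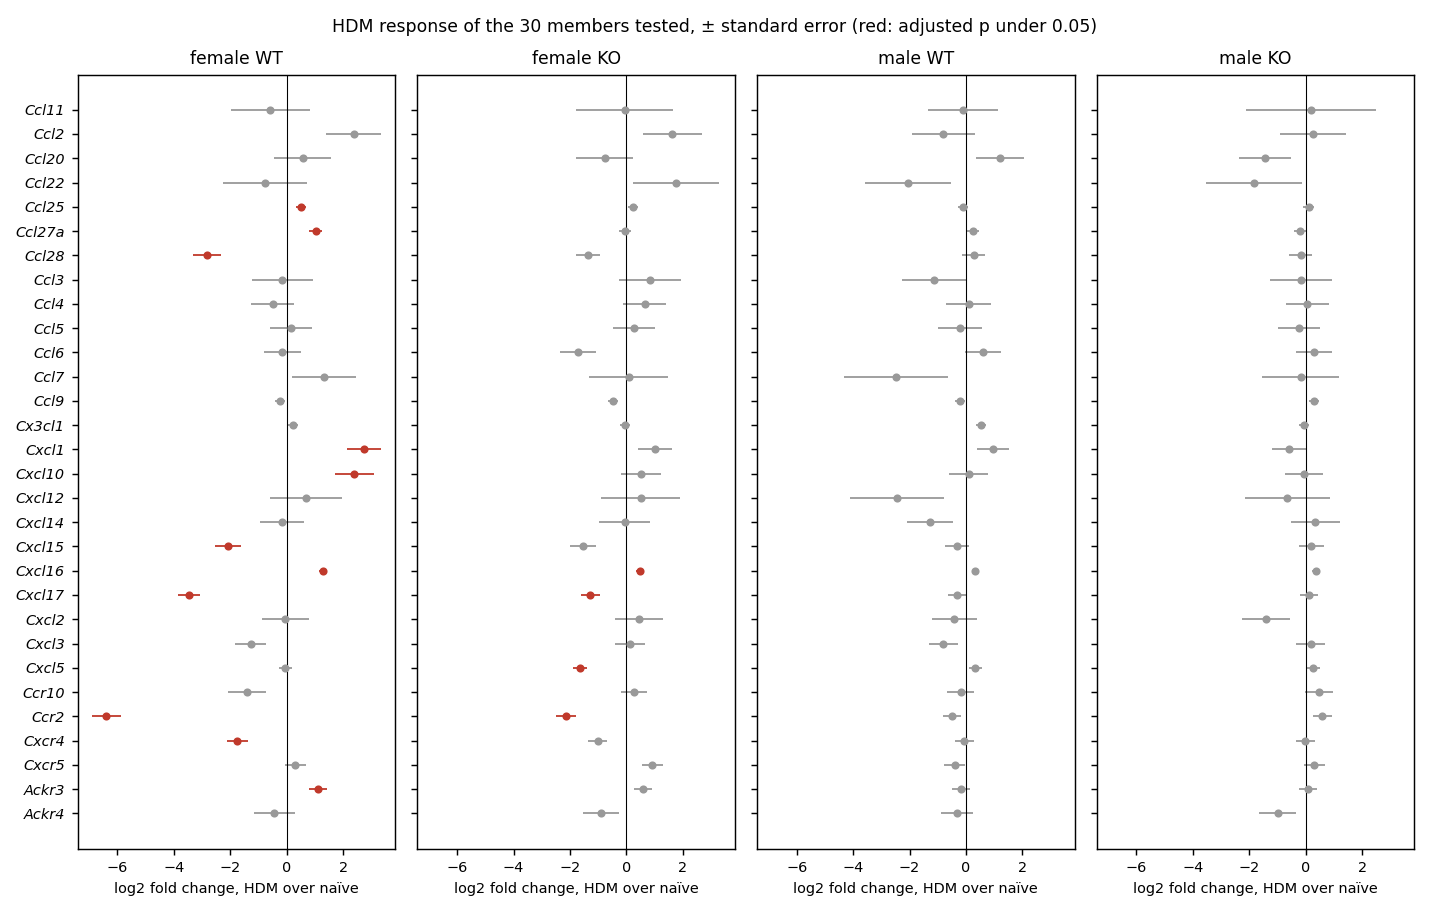
Log2 fold change of HDM over naïve (x axis) for the 30 tested members (y axis) in female WT, female KO, male WT and male KO MTECs, with bars of ± 1 standard error and red for an adjusted p under 0.05. Red points number 11, 4, 0 and 0 from left to right, and the farthest is Ccr2 in female WT at -6.39.

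Among the receptors, Ccr2 and Cxcr4 were lower and Ackr3 was higher after HDM in female WT. Ccr2, which guides monocytes to Ccl2 and Ccl7, lies on chromosome 9 of GRCm38 (chr9:124101950-124113557, plus strand). It had 75.6 and 70.6 CPM in the naïve female WT libraries and 0.333 and 1.47 CPM after HDM, which are 8 and 31 counts. In female KO libraries it had 80.6 and 53.5 CPM naïve and 16.7 and 13.6 CPM after HDM. All 4 female HDM libraries lay below every other library, and the female WT pair lay below the female KO pair. In males Ccr2 had 67.1 and 79.0 CPM in WT naïve, 35.1 and 68.3 in WT HDM, 51.2 and 80.6 in KO naïve, and 91.3 and 108 in KO HDM libraries. The male pairs overlapped between naïve and HDM in WT, and in KO the HDM pair lay above the naïve pair. The log2 fold change was -6.39 in female WT (standard error, SE, 0.51, adjusted p = 3.62e-06) and -2.15 in female KO (SE 0.36, adjusted p = 0.00379) in the quasi-likelihood test of edgeR. It was -0.5 in male WT and 0.59 in male KO (adjusted p = 0.936 and 0.781), which did not pass. Without female KO HDM replicate 2 the female KO change of Ccr2 no longer passed the test (largest adjusted p = 0.0607 over its alternatives). In female WT the value was -5.62 without HDM replicate 1 and -7.75 without HDM replicate 2, and it passed either way.

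Cxcr4, the signalling receptor of Cxcl12, had 2.22 and 2.70 CPM in naïve female WT libraries and 0.791 and 0.663 CPM after HDM, a log2 fold change of -1.75 (SE 0.37, adjusted p = 0.00296, edgeR's quasi-likelihood test). In female KO it had 3.16 and 3.10 CPM naïve and 1.21 and 1.86 CPM after HDM, which did not pass at an adjusted p of 0.0848. Male libraries held 1.39 to 2.52 CPM, with naïve and HDM pairs overlapping in both genotypes. In WT naïve they had 2.49 and 1.41 CPM, in WT HDM 1.73 and 2.01, in KO naïve 2.52 and 1.39 and in KO HDM 1.68 and 2.17. Ackr3, which removes Cxcl12 from the surroundings, moved the other way in female WT, from 25.1 and 20.1 CPM to 58.7 and 38.3 CPM. Its log2 fold change there was 1.1 (SE 0.31, adjusted p = 0.0136), a call lost without naïve replicate 2 or HDM replicate 1 (largest adjusted p = 0.11). The female KO pair of Ackr3 went from 20.1 and 19.6 to 30.3 and 29.2 CPM without passing (adjusted p = 0.265), and males held 13.1 and 24.4, 12.7 and 20.5, 12.3 and 18.5, and 17.7 and 14.9 CPM in WT naïve, WT HDM, KO naïve and KO HDM. The other receptors described were Ccr10 (0.0474 to 0.394 CPM), Cxcr5 (0.558 to 1.93 CPM), Ackr4 (0.0474 to 0.606 CPM) and Cx3cr1, and none was called in an HDM response. On the opposite strand, Cxcr5 overlaps Bcl9l by 110 bases (111 to 159 CPM) and Ackr4 overlaps Acad11 by 42777 bases (44.1 to 53.3 CPM).

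Marker genes of leukocytes and epithelium moved in the same comparison. From naïve to HDM in female WT, Csf1r went from 27.0 and 21.7 to 15.1 and 13.9 CPM (log2 fold change -0.74, adjusted p = 0.0187), and Adgre1 went from 31.6 and 18.4 to 20.6 and 19.1 CPM (-0.32, adjusted p = 0.422; edgeR's quasi-likelihood test for both). Ptprc had 5.92 and 4.23 CPM before and 2.29 and 3.93 CPM after (-0.71, adjusted p = 0.0968). Of the 9 leukocyte markers tested, 4 were called lower and none higher, beside 22.4% and 20.6% of all genes, led by Lyz2, which encodes lysozyme, at -1.55. The sum over the 20 markers was 310 and 258 CPM in naïve and 124 and 120 CPM in HDM female WT libraries, and without Lyz2 it was 107 and 80.7 against 56.5 and 57.4 CPM. Over the other 12 libraries the full sum lay between 189 and 316 CPM. Male libraries, with a sum without Lyz2 of 50.9 to 78.1 CPM, held 35.1 to 108 CPM of Ccr2. Of 12 airway epithelium markers tested, 4 were higher (Cdh1, Epcam, Krt18 and Krt8) and 7 lower (Bpifa1, Krt5, Muc5b, Scgb1a1, Scgb3a2, Sftpd and Trp63) in female WT HDM, beside the same shares of all genes. Which cells in these cultures carried Ccr2 was not tested.

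Among the ligands, Cxcl17, Cxcl15 and Ccl28 were lower after HDM in female WT, and of these Cxcl17 also passed in female KO. Cxcl17 lies on chromosome 7 (chr7:25400053-25412886, minus strand). Its female WT libraries went from 244 and 229 CPM naïve to 31.7 and 11.0 CPM after HDM, and its female KO libraries from 210 and 194 to 87.2 and 79.7 CPM. These 4 HDM libraries were the lowest of the 16. Male libraries had 198 and 233 CPM in WT naïve, 129 and 216 in WT HDM, 211 and 263 in KO naïve, and 250 and 262 in KO HDM. The log2 fold change was -3.46 in female WT (SE 0.38, adjusted p = 3.15e-05) and -1.28 in female KO (SE 0.34, adjusted p = 0.0342) in the quasi-likelihood test of edgeR. The latter was lost when any of the 4 female KO libraries was left out (largest adjusted p = 0.208). An antisense gene, itself counted at 0.237 to 1.86 CPM, overlaps Cxcl17. As the strand setting of the counting is not given, its reads may not be told from those of Cxcl17 where both overlap.

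Cxcl15 had 138 and 93.6 CPM in naïve and 36.8 and 17.4 CPM in HDM female WT libraries, a log2 fold change of -2.09 (SE 0.47, adjusted p = 0.0042, edgeR's quasi-likelihood test). In female KO it had 142 and 102 CPM naïve and 43.8 and 40.9 CPM after HDM, with -1.53 at an adjusted p of 0.0568, which did not pass. Male libraries held 72.8 and 156 CPM in WT naïve, 52.3 and 131 in WT HDM, 98.7 and 119 in KO naïve and 132 and 118 in KO HDM, so their pairs overlapped. Ccl28, a mucosal ligand of Ccr10 and Ccr3, had 5.41 and 5.42 CPM in naïve and 0.707 and 0.805 CPM in HDM female WT libraries. It fell by 2.84 on the log2 scale (SE 0.5, adjusted p = 0.000906, edgeR's quasi-likelihood test). Female KO libraries had 10.4 and 8.73 CPM naïve and 2.86 and 4.58 CPM after HDM (adjusted p = 0.0631), and male libraries 11.1 and 4.98, 11.4 and 8.03, 12.4 and 5.44, and 6.95 and 8.67 CPM in WT naïve, WT HDM, KO naïve and KO HDM. Both genes were lower in each female HDM library than in each naïve library of the same genotype.

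Cxcl5, a neutrophil attractant known from stimulated epithelium, fell after HDM in the female libraries labelled KO and was not called in the other 3 HDM responses. It had 83.2 and 106 CPM in naïve and 88.1 and 95.2 CPM in HDM female WT libraries, so the pairs overlapped (log2 fold change -0.044, adjusted p = 0.898). In female KO it went from 107 and 137 CPM to 37.0 and 40.7 CPM, the 2 lowest libraries of the 16, with -1.65 (SE 0.24, adjusted p = 0.00206, edgeR's quasi-likelihood test). Male libraries had 122 and 95.6 CPM in WT naïve, 155 and 119 in WT HDM, 111 and 64.8 in KO naïve and 101 and 110 in KO HDM. The difference in response between KO and WT labels was -1.61 in females (adjusted p = 0.0127) and -0.068 in males (adjusted p = 0.95).

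Among the ligands that rose, Cxcl16 had 99.0 and 98.3 CPM in naïve and 220 and 255 CPM in HDM female WT libraries, and 101 and 99.1 against 138 and 138 CPM in female KO libraries. Male libraries had 107 and 92.5 CPM in WT naïve, 146 and 106 in WT HDM, 114 and 107 in KO naïve, and 144 and 136 in KO HDM. Every HDM pair except that of male WT lay above its naïve pair, and that of male WT overlapped it. The log2 fold change was 1.27 in female WT (SE 0.13, adjusted p = 2.09e-05), 0.47 in female KO (0.13, adjusted p = 0.0395), 0.33 in male WT (0.13, adjusted p = 0.936) and 0.35 in male KO (0.13, adjusted p = 0.781), all from edgeR's quasi-likelihood test. The female KO call was lost when any of its 4 libraries was left out (largest adjusted p = 0.176). Zmynd15 overlaps Cxcl16 by 552 bases on the opposite strand, at 1.51 to 3.79 CPM.

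Cxcl1, which attracts neutrophils, had 1.63 and 3.30 CPM in naïve and 15.0 and 18.3 CPM in HDM female WT libraries, a log2 fold change of 2.73 (SE 0.6, adjusted p = 0.00343, edgeR's quasi-likelihood test). Female KO libraries had 1.65 and 2.66 CPM naïve and 4.44 and 4.33 CPM after HDM, with 1.02 at an adjusted p of 0.314. The naïve and HDM pairs were separate in both female genotypes and in male WT, and overlapped in male KO. Male libraries had 5.70 and 3.67 CPM in WT naïve, 10.8 and 7.11 in WT HDM, 6.41 and 1.17 in KO naïve, and 2.39 and 2.62 in KO HDM, and none of these responses passed. Cxcl10, an interferon-linked attractant of T cells, had 8.06 and 7.40 CPM in naïve and 40.9 and 39.8 CPM in HDM female WT libraries. Its log2 fold change was 2.39 (SE 0.69, adjusted p = 0.0159, edgeR's quasi-likelihood test), a call lost when either naïve library was left out (largest adjusted p = 0.0827), although the value stayed between 2.32 and 2.45. Elsewhere Cxcl10 did not exceed 8.84 CPM, and it had 1.42 and 6.66 in female KO naïve, 5.81 and 5.69 in female KO HDM, 2.62 and 6.97 in male WT naïve, 8.07 and 2.13 in male WT HDM, 6.86 and 6.06 in male KO naïve and 8.84 and 3.54 in male KO HDM.

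Ccl27a, a ligand of Ccr10, rose in female WT from 2.14 and 2.49 to 3.83 and 5.64 CPM (log2 fold change 1.02, SE 0.22, adjusted p = 0.00311, edgeR's quasi-likelihood test). Its other libraries lay between 2.10 and 2.92 CPM, with 2.88 and 2.57 in female KO naïve, 2.62 and 2.65 in female KO HDM, 2.12 and 2.36 in male WT naïve, 2.49 and 2.84 in male WT HDM, 2.41 and 2.92 in male KO naïve and 2.10 and 2.51 in male KO HDM. Ccl25, which overlaps Elavl1, went from 3.89 and 3.69 to 5.16 and 5.64 CPM in female WT. Its log2 fold change was 0.51 at an adjusted p of 0.0421 by edgeR's quasi-likelihood test. That call was lost when any of the 4 libraries was left out (largest adjusted p = 0.206). Its female KO libraries had 4.13 and 3.53 CPM naïve and 4.96 and 4.01 after HDM, and males 3.02 and 3.94, 3.18 and 3.24, 3.86 and 3.31, and 3.96 and 3.75 CPM in WT naïve, WT HDM, KO naïve and KO HDM. The plot of called genes shows these values by library.

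**Figure D4:**
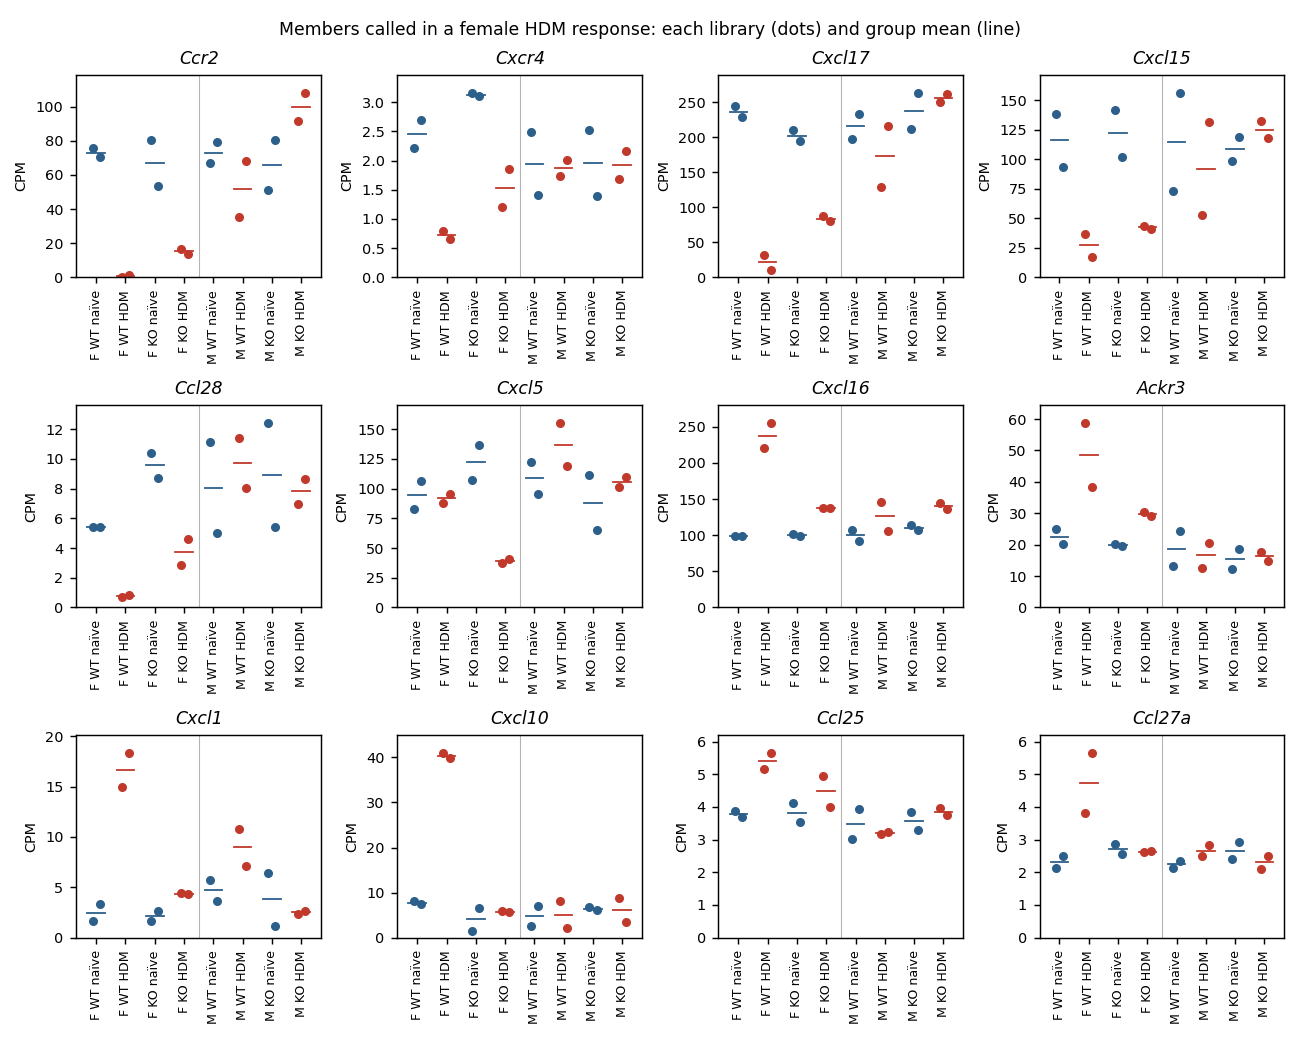
CPM (y axis, from 0) of the 12 genes called in a female HDM response, by group (x axis; F female, M male), with a dot for each library, a line for the group mean, blue for naïve and red for HDM. Ccr2 and Cxcl17 are lowest in the female HDM groups, while Cxcl10 is near 40 CPM only in female WT HDM (40.9 and 39.8 CPM).

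Genes of 1 chromosomal cluster did not move together. Cxcl5, Cxcl3, Cxcl15, Cxcl1 and Cxcl2 lie on the plus strand of chromosome 5 between 90759360 and 90905938. In female WT the log2 fold changes in that order were -0.044, -1.27, -2.09, 2.73 and -0.056, of which those of Cxcl15 and Cxcl1 passed. Cxcl3 reached an adjusted p of 0.0848 (edgeR's quasi-likelihood test), and Cxcl2 had a SE of 0.83. In female KO only Cxcl5 of these 5 passed.

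Promoter sequences are shown for members that moved in opposite directions. RefSeq promoter windows on GRCm38.p6, from 250 bases before to 50 bases after a start site, matched 21 of the 31 described genes. Windows were searched on both strands for the NF-κB consensus, an interferon-type element (TTTC, any 2 bases, TTTC) and the AP-1 consensus (TGA, C or G, TCA), and overlapping matches were merged. Of all 32851 windows, 8.46% hold the NF-κB consensus, 3.44% the interferon-type element and 5.20% the AP-1 consensus. Among the 21 genes, 7 hold the first (Ccl20, Ccl27a, Ccl9, Cxcl1, Cxcl10, Cxcl2 and Cxcl3), 2 the second (Cxcl10 and Cxcl14) and 3 the third (Ccl27a, Ccl28 and Cxcl10). The windows of Cxcl1 and Cxcl10, which rose, and of Ccr2, which fell most, are given 5′ to 3′ on the gene's strand with matches in capitals.
Cxcl1, chr5:90890995-90891294, plus strand: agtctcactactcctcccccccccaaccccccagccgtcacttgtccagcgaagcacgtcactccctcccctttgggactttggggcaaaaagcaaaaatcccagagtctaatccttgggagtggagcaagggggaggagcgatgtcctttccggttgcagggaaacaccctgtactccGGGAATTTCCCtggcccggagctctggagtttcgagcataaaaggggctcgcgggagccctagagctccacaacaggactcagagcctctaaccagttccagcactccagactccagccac
Cxcl10, chr5:92348840-92349139, minus strand: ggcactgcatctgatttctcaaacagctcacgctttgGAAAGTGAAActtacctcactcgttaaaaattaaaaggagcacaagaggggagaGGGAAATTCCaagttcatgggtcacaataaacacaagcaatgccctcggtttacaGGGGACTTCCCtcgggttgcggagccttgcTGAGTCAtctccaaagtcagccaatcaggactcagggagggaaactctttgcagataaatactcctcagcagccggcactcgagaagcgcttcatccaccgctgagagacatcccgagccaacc
Ccr2, chr9:124101933-124102232, plus strand: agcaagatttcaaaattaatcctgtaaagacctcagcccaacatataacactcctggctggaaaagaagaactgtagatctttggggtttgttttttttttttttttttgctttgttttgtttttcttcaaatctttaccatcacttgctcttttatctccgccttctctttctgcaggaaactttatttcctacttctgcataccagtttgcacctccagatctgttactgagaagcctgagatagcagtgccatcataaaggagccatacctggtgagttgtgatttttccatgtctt
The Cxcl1 window holds 1 merged NF-κB match, from -71 to -61 relative to the start, the same letters that stand at -97 to -87 of Cxcl2 and -73 to -63 of Cxcl3, which were not called. The Cxcl10 window holds an interferon-type match at -213 to -204, NF-κB matches at -159 to -150 and -104 to -94, and an AP-1 match at -74 to -68. The Ccr2 window holds none of the 3. It begins at 124101933, while the annotated gene begins at 124101950, so most of this window lies inside the gene. Sequence further before the annotated start of Ccr2 was not searched. A match says only that these letters are present.

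The second question was whether male and female cultures differ. In naïve MTECs edgeR called 0 of 30 members between the sexes in either genotype, beside 0.1% of all genes in WT and 0.188% in KO. Unadjusted p fell under 0.05 for 2 members in each, beside 1969 of all genes in WT and 1585 in KO. DESeq2 called 0 members in WT and 1 in KO (Ccl9), beside 204 and 216 of all genes. After HDM, 15 members differed in WT, 7 higher and 8 lower in males, beside 21.3% and 20.3% of all genes. In KO 5 members differed, all higher in males, beside 12.9% higher and 12.4% lower among all genes. The median log2 difference, male minus female, was -0.39 over the members and 0.018 over all genes in WT HDM, and -0.15 and -0.0032 in KO HDM.

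In WT HDM the members higher in males included Ccr2, Ccl28, Cxcl17, Cxcl15 and Cxcr4, which were lower after HDM in female WT, and both comparisons share the female WT HDM libraries. The log2 difference was 5.89 for Ccr2 (SE 0.51, adjusted p = 6.65e-06), 3.68 for Ccl28 (0.5, 0.000162) and 3.01 for Cxcl17 (0.37, 7.77e-05), by edgeR's quasi-likelihood test. Cxcl15 (1.75, SE 0.47, adjusted p = 0.011) and Cxcr4 (1.36, 0.38, 0.0135) followed by the same test. Cx3cl1, whose product tethers leukocytes to epithelium, had 131 and 109 CPM in male and 68.3 and 60.9 CPM in female WT HDM libraries, a log2 difference of 0.89 (SE 0.18, adjusted p = 0.00245, edgeR's quasi-likelihood test). Its naïve WT libraries had 101 and 66.7 CPM in males and 55.5 and 54.8 CPM in females, and every male library lay above every naïve female library. Male KO libraries held 101 and 70.5 CPM naïve and 81.8 and 82.8 after HDM, and female KO libraries 56.7 and 56.4, and 53.1 and 55.8 CPM. Ccl20, a ligand of Ccr6, had 7.21 and 3.46 CPM in male and 1.08 and 0.758 CPM in female WT HDM libraries (2.52, SE 0.94, adjusted p = 0.0495, edgeR's quasi-likelihood test), a call lost without any 1 of the 4.

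Lower in male WT HDM were Cxcl16 (-0.92, SE 0.13, adjusted p = 0.000194), Cxcl10 (-2.99, 0.71, 0.00594), Ackr3 (-1.55, 0.32, 0.00231), Ccl25 (-0.75, 0.19, 0.00744) and Ccl27a (-0.82, 0.22, 0.0105), from edgeR's quasi-likelihood test. The remaining 3 were genes linked to stromal cells, namely Ccl2 (-4.09, 1.09, 0.0107), Ccl7 (-5.35, 1.61, 0.0197) and Cxcl12 (-4.96, 1.66, 0.0315) by the same test. Female WT HDM replicate 2 held the highest level of each, with 14.0, 4.78 and 13.7 CPM, against 2.08, 0.666 and 4.00 CPM in replicate 1. The fibroblast marker sum in these replicates was 627 and 51.0 CPM, and it was 3.34 and 45.4 CPM in the male WT HDM libraries. Without female WT HDM replicate 2 the number of members called between the sexes dropped from 15 to 8, with Ccl2, Ccl7, Cxcl12, Cxcl15, Ccl20, Ccl27a and Cxcr4 lost. Ccl2 was also lost without either male WT HDM library, and Ccl7 and Cxcl12 without male WT HDM replicate 1. The part of fibroblasts in these differences was not tested.

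In KO HDM the 5 members higher in males were Ccr2 (2.72, SE 0.36, adjusted p = 0.000392), Cxcl17 (1.62, 0.34, 0.00557), Cxcl15 (1.56, 0.46, 0.028), Cxcl5 (1.44, 0.24, 0.00136) and Cx3cl1 (0.59, 0.18, 0.035), by edgeR's quasi-likelihood test. Leaving out any of the 4 libraries left 3 of them and lost Cxcl15 and Cx3cl1.

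The difference between the sexes in the HDM response itself was tested as an interaction. In WT 5 of 30 members differed, beside 11.3% of all genes with a higher and 12.8% with a lower response in females. Ccr2 differed by -5.89 (SE 0.62, adjusted p = 8.56e-05), Cxcl17 by -3.14 (0.49, 0.00107), Ccl28 by -3.11 (0.65, 0.00537) and Cxcr4 by -1.69 (0.51, 0.0312), while Cxcl16 had a higher female response by 0.93 (0.18, 0.00367), from edgeR's quasi-likelihood test. Cxcr4 was lost without 6 of the 8 libraries. The interaction of Cxcl1 and Cxcl10 was not called, so their rise in female WT is not shown to differ from male WT. In KO 2 members differed, Ccr2 (-2.74, SE 0.48, adjusted p = 0.014) and Cxcl5 (-1.91, 0.33, 0.0132), beside 1.79% and 1.77% of all genes, higher and lower. This count was 0 without male KO HDM replicate 2 or female KO HDM replicate 2, and 1 without naïve replicate 1 of either sex.

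The third question was whether KO-labelled cultures differ from WT, with the reservation on Lman1 given above. No member was called in naïve females, naïve males or males after HDM, where edgeR called 0% of all genes as well. Unadjusted p fell under 0.05 for 1, 0 and 4 members in these comparisons, beside 203, 867 and 2897 of all 15993 genes. DESeq2 called 0, 0 and 1 members (Cxcl1, male HDM), beside 1, 1 and 562 of all genes. In females after HDM, where Lman1 had 66.6 and 78.1 CPM in KO and 117 and 101 CPM in WT libraries, 9 members differed, 4 higher and 5 lower in KO, beside 14.9% and 14.3% of all genes. The median log2 difference, KO minus WT, was -0.26 over the members and 0.0043 over all genes.

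Higher in female KO HDM were Ccr2 (log2 difference 4.12, SE 0.54, adjusted p = 0.000383), Ccl28 (2.3, 0.51, 0.00683), Ccr10 (2.2, 0.62, 0.0217) and Cxcl17 (1.96, 0.36, 0.00262), by edgeR's quasi-likelihood test. Ccr10, the receptor shared by Ccl27a and Ccl28, rested on 2 and 1 counts in WT against 6 and 11 counts in KO libraries and was not called by DESeq2. It overlaps Cntnap1 on the opposite strand (1.41 to 3.17 CPM). Lower in female KO HDM were Cxcl10 (-2.81, 0.71, 0.0128), Cxcl1 (-1.92, 0.58, 0.0283), Cxcl5 (-1.24, 0.24, 0.00326), Ccl27a (-0.84, 0.22, 0.0154) and Cxcl16 (-0.78, 0.13, 0.00135), by the same test. The number called was 4 without female WT HDM replicate 2 and 4 without female KO HDM replicate 2. Ccr2, Cxcl17, Cxcl5 and Cxcl16 were called whichever of the 4 libraries was left out. In the female libraries labelled KO, Lman1 stood at 12.8 and 12.8 CPM naïve and at 66.6 and 78.1 CPM after HDM. Their response may therefore compare unlike cultures, and an effect of genotype on the response cannot be told apart from that. As a difference in the HDM response between the KO and WT labels, 5 members passed in females, beside 6.16% of all genes with a higher and 5.08% with a lower response in KO. These were Ccr2 (4.24, SE 0.65, adjusted p = 0.00298), Cxcl17 (2.18, 0.49, 0.0185), Cxcl5 (-1.61, 0.33, 0.0127), Ccl27a (-1.07, 0.31, 0.0484) and Cxcl16 (-0.8, 0.18, 0.0193) in the quasi-likelihood test of edgeR. The count was 1 without female WT naïve replicate 1 or female KO naïve replicate 2, 2 without female KO naïve replicate 1 or female KO HDM replicate 2, and 3 without female WT naïve replicate 2 or female WT HDM replicate 2. Ccl27a was called under 5 of 15 alternatives (largest adjusted p = 0.203), Cxcl16 under 8 (0.0794), Cxcl17 under 11 (0.0781), Cxcl5 under 13 (0.061) and Ccr2 under 15. In males edgeR called 0 members and 0% of all genes. At an unadjusted p under 0.05 there were 2 members, beside 1388 of all genes, and DESeq2 called 0 members and 0 genes.

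Within groups, several ligands differed widely between replicates. Ccl5 had 3.88 and 12.8 CPM in male WT naïve, 11.1 and 3.37 in male WT HDM, 12.6 and 13.4 in male KO naïve and 18.9 and 3.13 in male KO HDM libraries, and 16.7 and 13.3, 14.8 and 18.8, 5.81 and 15.9, and 13.1 and 13.1 CPM in female WT naïve, WT HDM, KO naïve and KO HDM libraries. Its 4 lowest libraries were male WT naïve 1, male WT HDM 2, male KO HDM 2 and female KO naïve 1. Ccl3 had 0.431, 0.309, 0.619 and 0.712 CPM in these 4 and 2.43 to 5.65 CPM in the other 12. In order, the other 12 libraries of Ccl3 were 5.65 in male WT naïve 2, 2.46 in male WT HDM 1, 2.83 and 2.43 in male KO naïve, 4.07 in male KO HDM 1, 3.92 and 3.64 in female WT naïve, 3.00 and 3.84 in female WT HDM, 3.44 in female KO naïve 2, and 3.07 and 4.26 CPM in female KO HDM. Ccl4, Ccl22, a ligand of Ccr4, and Cxcl10 had the same 4 lowest libraries. So 5 of 30 tested members (16.7%) and 49 of all 15993 tested genes (0.306%) had these 4 lowest libraries, in any order. The 4 libraries were taken from Ccl5 itself after the values were seen. Ccl5 is thus among the 5 by definition, and the shares are a description only. These libraries come from 4 groups, so no comparison between groups rests on them alone, and none of the 9 leukocyte markers tested had these 4 lowest libraries.

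**Figure D5:**
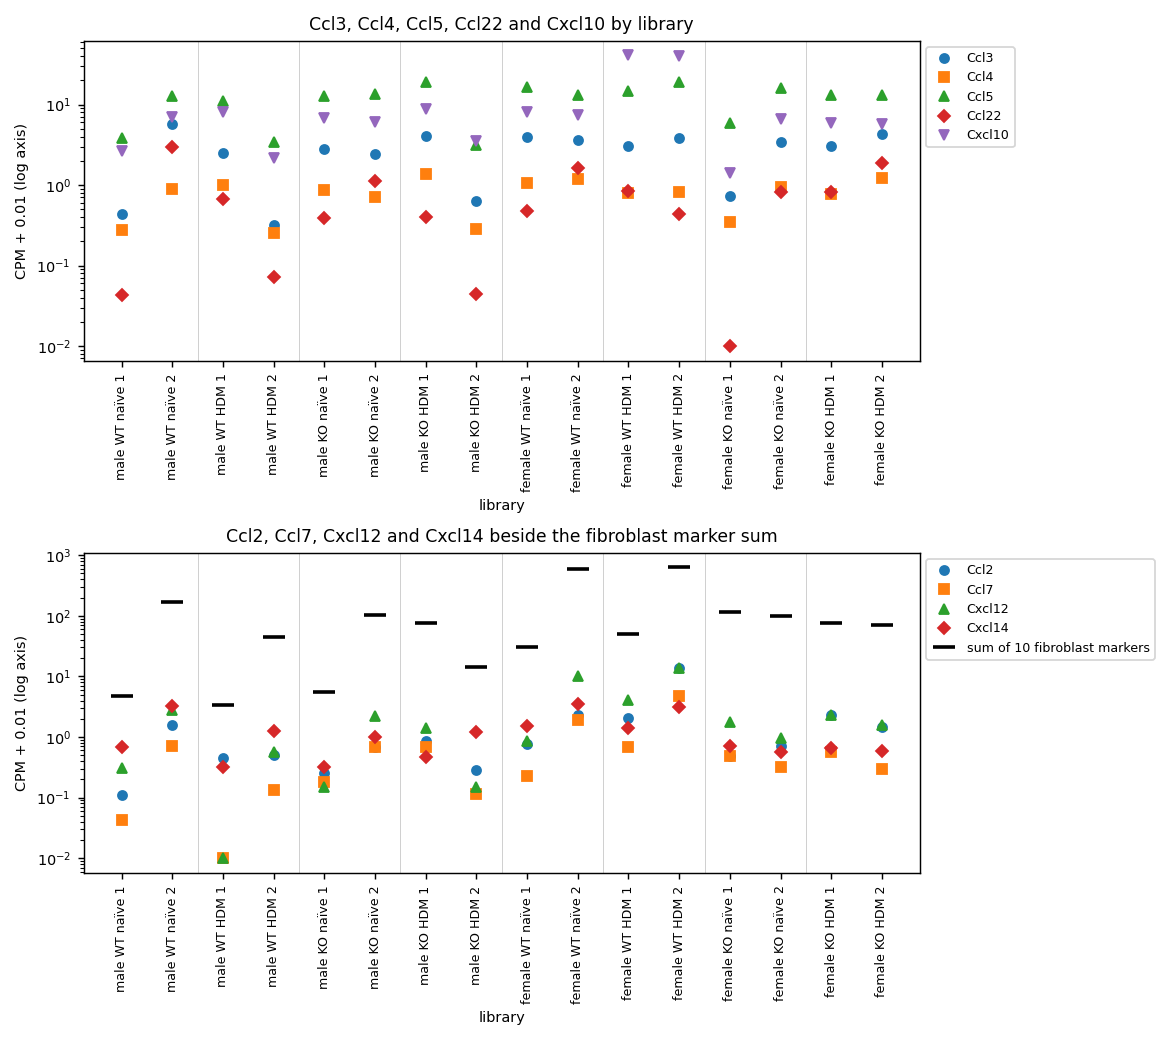
CPM plus 0.01 (log axis) in each of 16 libraries (x axis) for Ccl3, Ccl4, Ccl5, Ccl22 and Cxcl10 (upper panel) and for Ccl2, Ccl7, Cxcl12, Cxcl14 and the sum of 10 fibroblast markers (lower panel). The upper panel dips together in male WT naïve 1, male WT HDM 2, male KO HDM 2 and female KO naïve 1, and in the lower panel the fibroblast sum reaches 591 and 627 CPM in replicate 2 of female WT naïve and HDM.

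A second set, Ccl2, Ccl7, Ccl11, Cxcl12 and Cxcl14, is set beside the fibroblast markers between the replicates of a group. In naïve female WT libraries, where the fibroblast sum was 30.3 and 591 CPM, Cxcl12 had 0.836 and 9.98 CPM, Ccl7 0.218 and 1.87 CPM, and Ccl2 0.763 and 2.27 CPM. In naïve male WT libraries the sum was 4.67 and 172 CPM, and Cxcl12 had 0.298 and 2.79 CPM, Cxcl14 0.663 and 3.20 CPM and the eosinophil attractant Ccl11 0.0331 and 0.707 CPM. In each of these pairs the library with the higher sum had the higher ligand level. Other pairs ran the other way, as in male KO HDM, where the sum was 76.1 and 14.3 CPM and Cxcl14 had 0.464 and 1.20 CPM. In female KO naïve libraries the sum was 116 and 98.6 CPM and Ccl2 had 0.484 and 0.712 CPM, with Ccl11 at 0.114 and 0.124 CPM. In female KO HDM the sum was 75.1 and 69.6 CPM and Ccl11 had 0.0807 and 0.143 CPM. None of Ccl2, Ccl7, Ccl11, Cxcl12 and Cxcl14 was called in an HDM response. The remaining described ligands were Cxcl2 (0.551 to 6.29 CPM), Cxcl3 (1.42 to 8.28 CPM), Ccl6 (0.202 to 1.99 CPM) and Ccl9, none of which was called in any comparison by edgeR.

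Genes around the chemokines were followed through 4 lists, whose counts stand beside 20.6% of all genes called higher and 22.4% lower in female WT HDM, and 4.63% and 5.77% in female KO HDM. In female WT HDM, of 18 tested genes that cleave, tether or present chemokines, 9 were higher and none lower, with a median log2 fold change of 0.47 against -0.024 over all genes. They were heparan sulfate proteoglycans and their synthesis enzymes (Ext1, Ext2, Gpc1, Hs2st1, Hspg2, Sdc2, Sdc3 and Sdc4) and the protease Mmp14. Hspg2, which encodes perlecan, had 52.6 and 86.0 CPM naïve and 750 and 734 CPM after HDM (log2 fold change 3.42, SE 0.23, adjusted p = 9.94e-07, edgeR's quasi-likelihood test). In female KO 3 of the 18 were higher (Ext1, Hspg2 and Mmp14), with Hspg2 at 1.85. The metalloproteases that release the tethered Cxcl16 and Cx3cl1, Adam10 and Adam17, held 184 to 249 and 115 to 138 CPM over all libraries.

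Of 41 tested genes that signal downstream of chemokine receptors, 11 were higher and 9 lower in female WT HDM (median -0.078), beside 20.6% and 22.4% of all genes, and 3 and 2 in female KO, beside 4.63% and 5.77%. Grk3, a kinase that desensitizes such receptors, went from 31.8 and 21.9 to 3.00 and 2.56 CPM in female WT (-3.26, SE 0.35, adjusted p = 2.73e-05) and from 26.4 and 19.6 to 8.92 and 10.3 CPM in female KO (-1.26, 0.3, 0.0226), by edgeR's quasi-likelihood test. Rgs4, which shortens G protein signals, rose in both, by 4.11 and 3.06 (adjusted p = 3.98e-05 and 0.00229, edgeR's quasi-likelihood test). Of 35 tested genes that drive or restrain chemokine transcription, 12 were higher and 9 lower in female WT (median 0.095), and 3 and 3 in female KO. The 12 include 4 genes whose products restrain NF-κB (Nfkbia, Nfkbie, Tnfaip3 and Tnip1). The list moved both ways, as the NF-κB subunit gene Relb was higher (0.86, adjusted p = 8.41e-05) and Rel lower (-0.66, adjusted p = 0.000883) in female WT by edgeR's quasi-likelihood test. In female KO the called gene with the smallest p was Csf3, which went from 9.29 and 8.21 to 2.86 and 3.19 CPM. Csf3 was also called lower in female WT. Irf7, an interferon-linked factor, had 17.0 and 17.2 CPM naïve and 42.8 and 28.1 CPM after HDM in female WT, against 13.9 and 15.9, and 10.0 and 11.0 CPM, in female KO. Of 15 tested chemokine-like genes and receptors with other symbols, 2 were higher and 3 lower in female WT (median -0.16) and 1 and 1 in female KO, led by Cmtm3 (1.34 in female WT and 0.94 in female KO, adjusted p = 1e-04 and 0.00569, edgeR's quasi-likelihood test). No gene of the 4 lists was called in either male HDM response.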

How the data were processed

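Read counts for each Ensembl gene, which were not normalized, were deposited by the authors for 16 libraries from RNA of MTEC cultures. The submitters' processing notes name Trimmomatic 0.36, STAR 2.5.2b, featureCounts from Subread 1.5.2, DESeq2 and GRCm38, and the strand setting is not given in the sources used here. Overlaps between genes were taken over whole gene spans. How reads in an overlap were counted is not known, so some may be missing or on the other gene. All columns were used, those without a number being taken as replicate 1. Identifiers were matched to GENCODE M21 on GRCm38 (49056 of 49315, the rest holding 0.0106% of counts).

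Counts were filtered with filterByExpr by group and scaled by TMM (factors 0.967 to 1.02), and 15993 genes were fitted in 1 model of the 8 group means with edgeR 4.0.16 (glmQLFit and glmQLFTest, two-sided) in R 4.3.3. A gene was called at a Benjamini-Hochberg adjusted p under 0.05 over all genes tested. The common biological coefficient of variation was 0.142. CPM per kilobase used the union of annotated exons. P-values measure the spread between cultures, 2 a group. Depth ranged from 21860698 to 43442188 counts, and floors of 3 counts cover counting error only. DESeq2 1.42.0, upper-quartile scaling, other filters, only the compared libraries, a replicate block, a fold threshold and leaving out each library were alternatives. The main fit, DESeq2, the replicate block and the fit of only the compared libraries were run on simulated counts. These had changes planted in female WT HDM only and the same spread for every gene. Interactions and fits leaving out a library were not simulated.

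The genes, the gene lists and the tests were chosen with earlier results of these data known. Of the genes matching the symbols, 1 is not reported here and enters no count of members. All called members were named in each comparison. Values by library were given for members called in an HDM response and for the 10 with the highest level per kilobase. Outside genes were taken from the lists, led by the called gene with the smallest p, and some others were named as examples. Python 3.11.15 with pandas 2.3.3, numpy 2.4.6 and matplotlib 3.10.9 was used for tables and plots.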

Additional observations from a re-analysis of the deposited data

Results flagged for a closer look

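Responses to HDM that differed between the sexes or genotypes by an interaction term are listed here, as log2 differences that passed the quasi-likelihood test of edgeR. In WT MTECs the female minus male difference in response was -5.89 for Ccr2, -3.14 for Cxcl17, -3.11 for Ccl28, -1.69 for Cxcr4 and 0.93 for Cxcl16. In KO-labelled MTECs it was -2.74 for Ccr2 and -1.91 for Cxcl5. In females the KO minus WT difference in response was 4.24 for Ccr2, 2.18 for Cxcl17, -1.61 for Cxcl5, -1.07 for Ccl27a and -0.8 for Cxcl16. Responses of the libraries labelled KO carry the reservation on Lman1 given above. Of the differences that did not hold throughout, that of Ccl27a was called under 5 of 15 alternatives, Cxcl16 between genotypes under 8, Cxcr4 under 8, Ccr2 between the sexes in KO under 11, Cxcl17 between genotypes under 11, Cxcl5 under 13 in both comparisons and Cxcl16 between the sexes under 14. Ccr2, Cxcl17 and Ccl28 between the sexes in WT, and Ccr2 between the genotypes in females, were called under every one of the 15 alternatives run for each. With 2 libraries a group no test for outlying libraries was made.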

How the results depend on the processing

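Precision is limited by 2 cultures a group. Of the 56 named changes of called members, 24 were called under every alternative, and none of the 664 values under the alternatives changed sign. Of these values, the 56 under the fold threshold are those of the main fit and could not change sign. The other alternatives refit the same counts from which the 56 changes were chosen, so an unchanged sign is no independent check. DESeq2 lost 1 of the 56 calls, upper-quartile scaling 1, a minimum of 10 counts in 2 libraries 0, no filter 3, only the compared libraries 8, and a log2 fold change of at least 1 lost 11. Without a filter on low counts 29397 genes were tested and the members called numbered 12 for HDM in female KO, 8 in male WT and 5 in male KO, 12 between the sexes in KO HDM, 7 in WT naïve and 7 in KO naïve, and 16, 11, 5 and 1 between genotypes in female HDM, male HDM, female naïve and male naïve MTECs. In the interactions it gave 13 and 9 between the sexes in WT and KO, and 10 and 6 between genotypes in females and males. With only the compared libraries the counts were 12 for HDM in female KO, 10 between the sexes in KO HDM and 4 for the interaction of sex in KO. The share of all genes called without a filter or with only the compared libraries is not given here. These counts of members therefore have no background beside them. DESeq2 called 1 member between the sexes in KO naïve and 1 between genotypes in male HDM MTECs, beside 216 and 562 of all genes. The cause was not tested in any of these.

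Leaving out 1 library leaves a lone sample that is assumed to vary like the other groups. The count of members called then ranged from 1 to 2 for HDM in female KO, from 8 to 16 between the sexes in WT HDM, from 3 to 3 in KO HDM, from 4 to 9 between genotypes in female HDM, from 0 to 3 for the interaction of sex in KO, and from 1 to 5 for the interaction of genotype in females.

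Replicate numbers share only a number, since no label says that they mark a shared pool. Across 15993 genes the same-numbered deviations of the 12 pairs of groups correlated between -0.184 and 0.496. With the replicate block 2 members were called for HDM in female KO in place of 4 and 8 for the interaction of sex in WT in place of 5, 5 of the 56 calls were lost, and no other count moved by more than 1.5 times.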

Other observations

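Of 35 tested genes that drive or restrain chemokine transcription, 4 (Il1a, Il1b, Il6 and Traf1) had the same 4 lowest libraries as Ccl3, Ccl4, Ccl5, Ccl22 and Cxcl10, a pattern noticed in the data and given without a test. The other 31, among them the cytokine genes Tnf, Csf2, Csf3 and Il33, did not have exactly these 4 lowest libraries. Tnf still had 3.25, 4.54, 3.17 and 1.62 CPM in male WT naïve 1, male WT HDM 2, male KO HDM 2 and female KO naïve 1. The other replicates of these groups held 6.63, 8.22, 6.99 and 4.27 CPM. Csf3 had 10.5, 6.89, 6.71 and 9.29 CPM in the 4, against 6.09, 11.1, 9.31 and 8.21 CPM in the other replicates. Il1b, which encodes interleukin-1 beta, had 0.0331 CPM in male WT naïve 1, 0.124 in male WT HDM 2, 0 in male KO HDM 2 and 0.114 in female KO naïve 1, where the other 12 libraries held 3.59 to 14.2 CPM. Il1a had 0.265, 0.124, 0.103 and 0.256 CPM in the same 4 libraries and 1.17 to 8.48 CPM in the others. The macrophage marker Csf1r had 13.8, 17.6, 19.8 and 31.4 CPM there and 10.5 to 29.7 CPM elsewhere, so it did not follow.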
